A study of Mus musculus with 10 samples.

Results

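Endocrine progenitors with high Neurog3 and no detected Fev were singled out from single-cell RNA sequencing of the embryonic mouse pancreas. A cell was taken when it held at least 3 unique molecular identifiers (UMIs, counted mRNA molecules) of Neurog3. These had to make up at least 0.1% of its UMIs, and Fev had to be at 0 UMIs. A Fev count of 0 cannot tell cells before Fev from cells in which Fev was missed or already off. Cells in which Gcg, or Ins1 and Ins2 together, reached 1% of UMIs, or in which Col3a1 exceeded 1 UMI, were left out, as were cells with fewer than 200 detected genes. Other hormone genes, such as Ghrl and Pyy, were not part of the criteria. By these criteria 1591 of 57982 cells were taken, and 29858 of the 57982 cells carried Epcam, a marker of epithelium. Because Neurog3, Fev, Gcg, Ins1, Ins2 and Col3a1 defined the cells, their levels are given below as a description and were not tested.

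The study profiled dissociated pancreata with 10x Genomics droplets. Swiss Webster pancreata were collected at embryonic day (E) stages E12.5, E14.5 and E17.5 with the version 1 (v1) kit on live cells, which gave 4 libraries, with E14.5 as batch 1 and batch 2. They were collected again with the version 2 (v2) kit on live cells depleted of CD140a+ mesenchyme, which gave 3 libraries, the E17.5 suspension having been loaded in 2 wells that were summed here. A further v2 library came from E14.5 Fev-Cre;ROSA26mTmG pancreata, in which Cre from the Fev-Cre transgene switches a cell and its descendants from membrane tdTomato to membrane GFP, and sorted GFP+ cells and tdTomato+ cells were mixed for this library. No group received any other agent, and no group was a mutant of an endocrine gene. Each library was 1 pool of pancreata from 1 or more litters, so there was 1 pool for each stage and kit apart from v1 E14.5, and differences between libraries include differences between pools. Dissociation was longer at later stages, so stage and dissociation time cannot be told apart. The v2 stages were each prepared on their own day, so stage and day cannot be told apart among them, whereas v1 E12.5, v1 E17.5 and batch 2 of v1 E14.5 belonged to 1 collection.

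Neurog3 is the basic helix-loop-helix transcription factor that commits cells of the pancreatic trunk epithelium to the endocrine fate. Notch signalling, through Hes1, holds Neurog3 down in neighbouring progenitors, while Neurog3 raises Notch ligands and its own downstream factors such as Neurod1, Pax4 and Insm1. A cell that reaches a high level leaves the cell cycle, delaminates from the epithelium and passes through a Fev-positive stage before it makes hormones. Neurog3 protein is short-lived, and its mRNA marks a brief window.

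Factors of this family bind DNA at E-boxes, the motif CANNTG. The 250 bases before the transcription start are shown for Neurog3 itself and for 3 of the genes whose levels set the cells apart below, with every E-box in capitals, as 5′ to 3′ sequence from RefSeq on GRCm38.p6. The windows are chr10:62132840-62133089, plus strand for Neurog3, chr6:67037408-67037657, minus strand for Gadd45a, chr11:98329646-98329895, minus strand for Neurod2, and chr9:121495695-121495944, minus strand for Cck.
Neurog3: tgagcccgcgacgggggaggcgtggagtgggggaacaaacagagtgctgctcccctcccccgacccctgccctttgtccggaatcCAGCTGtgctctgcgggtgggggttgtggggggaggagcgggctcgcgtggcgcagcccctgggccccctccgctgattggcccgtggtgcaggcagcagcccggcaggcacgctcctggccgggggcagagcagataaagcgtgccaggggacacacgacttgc
Gadd45a: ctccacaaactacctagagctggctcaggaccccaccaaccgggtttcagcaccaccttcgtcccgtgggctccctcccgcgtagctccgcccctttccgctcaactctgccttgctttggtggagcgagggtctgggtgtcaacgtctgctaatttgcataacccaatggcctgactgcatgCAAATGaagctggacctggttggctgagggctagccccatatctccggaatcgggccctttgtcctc
Neurod2: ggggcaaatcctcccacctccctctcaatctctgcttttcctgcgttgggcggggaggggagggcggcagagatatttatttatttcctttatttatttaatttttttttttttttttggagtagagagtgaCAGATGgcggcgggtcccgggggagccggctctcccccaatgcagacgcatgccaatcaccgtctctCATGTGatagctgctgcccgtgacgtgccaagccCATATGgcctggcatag
Cck: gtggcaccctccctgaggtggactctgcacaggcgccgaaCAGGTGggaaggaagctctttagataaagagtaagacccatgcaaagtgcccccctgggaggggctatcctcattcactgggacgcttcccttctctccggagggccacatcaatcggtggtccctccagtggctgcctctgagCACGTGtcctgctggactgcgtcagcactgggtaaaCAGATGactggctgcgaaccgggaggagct
Neurog3 and Gadd45a each held 1 E-box in this window, and Neurod2 and Cck each held 3. The variant CAGATG, or CATCTG on the opposite strand, stood once in the Neurod2 window, starting 118 bases before the transcription start, and once in the Cck window, starting 30 bases before it. Windows were also searched for Btbd17, Hes6, Neurod1, Dll4, Cdkn1a, Chga, Sox11 and Dlk1, and none of them held the variant. Btbd17, Dll4, Cdkn1a and Dlk1 held no E-box in their windows, while Hes6, Neurod1, Chga and Sox11 held at least 1. Among the 27025 genes with a promoter window, 66% held at least 1 CANNTG and 14.48% held CAGATG or CATCTG, with both strands searched, so most promoters hold some E-box while the variant is less common.

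The cells were found in every library. They numbered 27 in v1 E12.5, 120 and 65 in v1 E14.5 batches 1 and 2, and 26 in v1 E17.5. There were 385 in v2 E12.5, 504 in v2 E14.5 and 286 in v2 E17.5, the last with 125 and 161 in its 2 wells, and 178 in the Fev-Cre library. Of the Epcam-positive cells, those meeting the criteria made up 5.59% in v1 E12.5, 6.50% and 9.32% in v1 E14.5 and 4.89% in v1 E17.5, and 5.18%, 6.35% and 4.02% at the same stages with v2. In the Fev-Cre library they made up 3.46%. Among the Swiss Webster libraries E14.5 was highest within each kit. The Fev-Cre library was the lowest of all. It was also v2 and E14.5, but of another strain, mixed from GFP+ and tdTomato+ cells and without CD140a depletion described. The exact 95% binomial interval of v2 E14.5 (5.80% to 6.92%) lay above those of v2 E12.5 (4.68% to 5.72%) and v2 E17.5 (3.57% to 4.50%). With v1 the E14.5 batch 1 interval (5.34% to 7.82%) overlapped those of E12.5 (3.40% to 8.59%) and E17.5 (3.13% to 7.25%). The intervals cover counting error only, with 1 pool behind each. Among all cells kept the median library share was 2.25%, against 5.38% of Epcam-positive cells.

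Neurog3 took a median 0.344% of the UMIs of these cells at v1 E12.5, 0.620% and 0.432% at v1 E14.5 and 0.620% at v1 E17.5. The medians were 0.237% in v2 E12.5, 0.233% in v2 E14.5 and 0.615% in v2 E17.5, and the Fev-Cre library stood at 0.408%. Both E17.5 libraries were thus above both E12.5 libraries, while the E14.5 libraries spanned nearly the whole range. The highest single cell, in v1 E14.5 batch 1, gave 2.07% of its UMIs to Neurog3. Epcam-negative cells with at least 3 UMIs of the collagen genes Col1a1 and Col1a2, a mesenchymal class that should lack the gene, carried any Neurog3 UMI in up to 3.60% of cells. In v1 E17.5 it was found in 0 of 1172 such cells, which allows a share of up to 0.256% at 3 counts, with an exact 95% upper limit of 0.314%. The summed level there was 0 to 18.2 CPM (UMIs of a gene per 1000000 UMIs), against 2336 to 6067 CPM in the cells taken. Median depths of the collagen-positive cells were 2474 to 10484.5 UMIs.

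**Figure D1:**
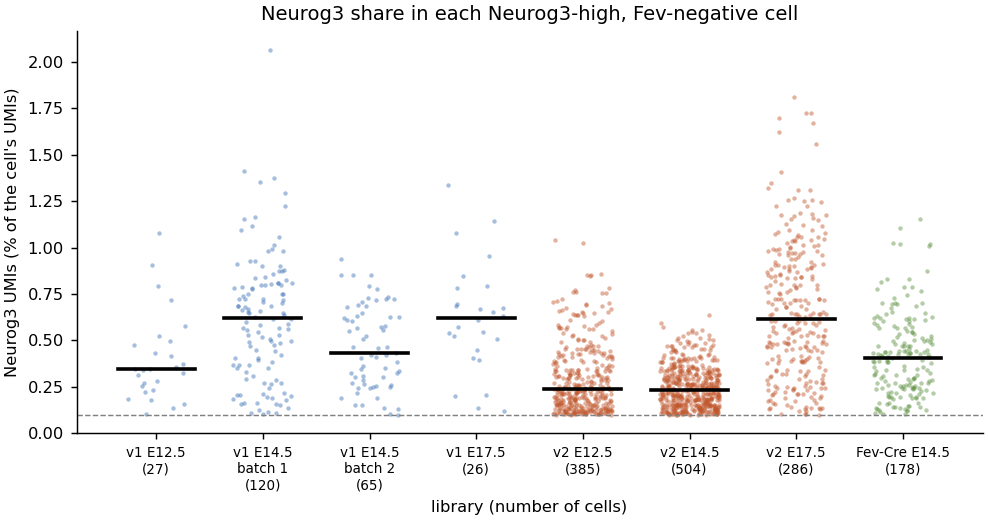
Neurog3 UMIs as a percentage of all UMIs (vertical axis) in each Neurog3-high, Fev-negative cell, by library (horizontal axis, number of cells in parentheses). Each point is a cell, black bars are medians, and the dashed line is the 0.1% criterion. The medians run from 0.233% at v2 E14.5 to 0.620% in v1 E14.5 batch 1 and v1 E17.5.

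The cells were described by 5 further markers given for them, the growth arrest gene Gadd45a, the transcription factor Neurod2, Igfbpl1, the peptide gene Cck and Btbd17. These markers were picked with these data in view, so their detection is a description and not an independent check of the name. At least 2 of the 5 were detected in 1481 of the 1591 cells, and none in 48. Cells just inside the criterion, with Neurog3 at 0.1% to 0.12% of UMIs, numbered 110, held a median of 4 of the markers, 76.4% had at least 2 and 11.8% had none. The 117 cells just outside it, at 0.08% to 0.1%, held a median of 3, 70.1% had at least 2 and 21.4% had none. Epcam-positive cells with only 1 or 2 Neurog3 UMIs were far from this, since 13.8% of 1366 had at least 2 of the markers.

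The median cell had 5384 UMIs, from 2890.5 in v1 E14.5 batch 1 to 7968 in v2 E17.5. Mixed-compartment cells, defined by at least 1 UMI of Ptprc, Tyrobp, Pecam1 or Cdh5, 3 UMIs of Col1a1 and Col1a2, 2% of UMIs from 8 acinar genes or 5% from haemoglobin genes, made up 137 of the 1591, 76 lacked Epcam, and 64 carried a barcode also seen in another library of the same kit. Haemoglobin RNA was unevenly spread, with the summed level of 8 erythroid genes at 57657 CPM in v2 E17.5 and at 5.61 to 10140 CPM in the other libraries. Results that these cells moved are given with and without them.

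The cells were first compared with the trunk epithelium of the same libraries, the 6915 Epcam-positive, Sox9-positive cells with Neurog3 and Fev at 0 and little acinar RNA. The comparison asks what accompanies Neurog3 as trunk cells become endocrine. It rested on UMIs summed per library and class in all 8 libraries, with the library as a block. Trunk cells were the deeper class in all 8 libraries. Their median depths were 4028 to 12798 UMIs by library, against 2890.5 to 7968 in the Neurog3-high cells. All 5 markers were higher in the Neurog3-high cells of every library. They had been picked with these data in view, so their direction is not independent evidence.

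Gadd45a stood at 2083, 2271, 2613 and 1944 CPM in v1 E12.5, v1 E14.5 batches 1 and 2 and v1 E17.5, and at 1266, 1765, 1657 and 1637 CPM in v2 E12.5, v2 E14.5, v2 E17.5 and Fev-Cre. In trunk cells it stood between 14.2 and 32.8 CPM. The ranges did not overlap, and the log2 fold change was 6.17 (SE 0.12, adjusted p = 4.27e-16). Btbd17 ran from 719 to 2287 CPM against 3.22 to 23 CPM in the trunk, a log2 fold change of 7.14 (SE 0.20). Igfbpl1 ran from 396 to 1522 CPM against 3.06 to 34.5 CPM, and Cck from 355 to 2831 CPM against 1.24 to 62 CPM. Neurod2 was the most variable of the markers, at 28.4 CPM in v1 E12.5 and 23.6 CPM in v2 E12.5 but 118 to 516 CPM in the other 6 libraries. The trunk held 13 Neurod2 UMIs in all, so no fold is given.

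**Figure D2:**
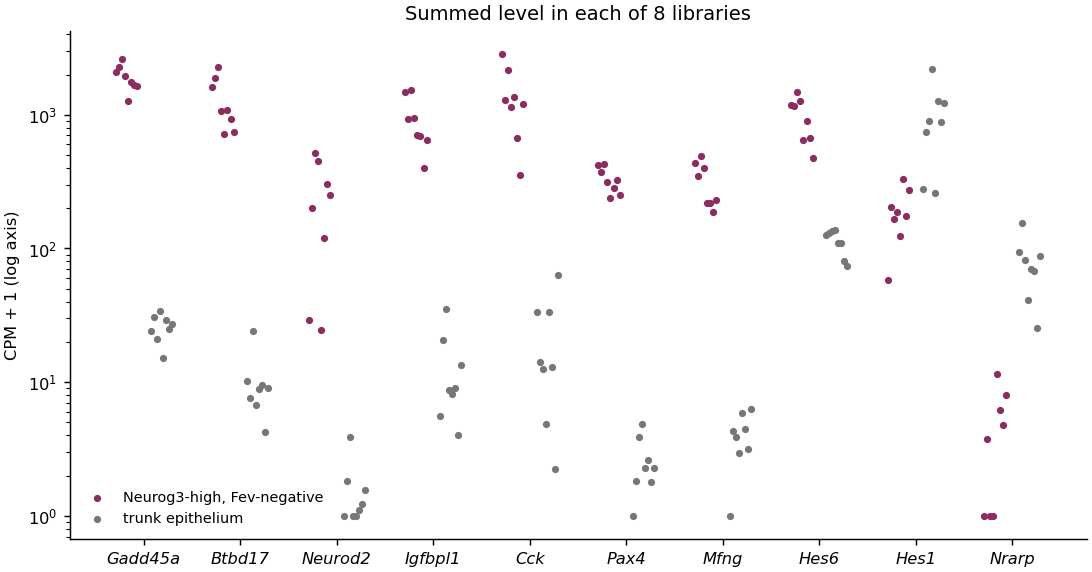
Summed level of 10 genes (CPM plus 1, log axis) in Neurog3-high, Fev-negative cells (purple) and in trunk epithelium (grey), 1 point for each of the 8 libraries. The first 8 genes are higher in the Neurog3-high cells of every library, while Hes1 and Nrarp are lower.

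Genes of the Notch pathway moved in both directions. Of 6 ligand genes tested, 4 were higher and 2 lower, where 25.6% of all 11196 genes tested were called higher, 25.8% lower and 51.4% either way. The list's median log2 fold change was 4.34, against -0.00 for all genes. Dll1, the ligand known to act in the early pancreas, stood at 7.23 to 74.8 CPM against 0 to 13.9 CPM in the trunk (log2 fold change 3.79, SE 0.30, adjusted p = 1.63e-08). Dll4 stood at 18.6 to 87.2 CPM against 0 to 1.11 CPM, and Dll3, which acts on Notch within the cell that makes it, at 7.61 to 218 CPM against 0 to 3.51 CPM. Jag1 and Dlk1, by contrast, were lower by log2 fold changes of -1.35 (SE 0.30) and -1.05 (SE 0.20). Of 11 receptor and modifier genes, 5 were higher, 2 lower and 4 not called. Mfng and Lfng, glycosyltransferases that modify Notch receptors, were higher by 5.98 (SE 0.17) and 3.49 (SE 0.22) on the log2 scale. The receptor gene Notch2 was lower by -2.10 (SE 0.24, adjusted p = 3.36e-06), with at most 57.2 CPM in the trunk and at most 12.7 CPM in the Neurog3-high cells, and was at 0 in all v1 libraries of the Neurog3-high cells. Notch3 was lower by -1.52 (SE 0.34).

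Of 4 Notch target and Hes family genes, 1 was higher, 2 were lower and 1 was not called. Hes1, the Notch target that represses Neurog3, stood at 56.8, 205, 164 and 187 CPM in the v1 libraries and at 123, 328, 173 and 271 CPM in the v2 and Fev-Cre libraries, in the order given above. In the trunk of the same libraries it stood at 278, 748, 895 and 2214 CPM, then 261, 1268, 883 and 1228 CPM. Hes1 was lower in the Neurog3-high cells of all 8 libraries (log2 fold change -2.12, SE 0.18, adjusted p = 4.71e-08), although the highest of their levels exceeded the lowest of the trunk levels. Nrarp, a feedback inhibitor of Notch, stood at 0 to 10.6 CPM against 24.3 to 154 CPM (log2 fold change -3.40, SE 0.23). Hes6, a relative of Hes1 that opposes it and lies downstream of proneural factors, went the other way, at 474 to 1476 CPM against 72.5 to 137 CPM (log2 fold change 2.98, SE 0.10).

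Of 29 transcription factor genes of the Neurog3 pathway that were tested, 25 were higher, 1 was lower and 3 were not called, with a median log2 fold change of 2.46. Pax4, needed for the beta and delta lineages, stood at 236 to 428 CPM against 0 to 3.86 CPM (log2 fold change 7.84, SE 0.18). Insm1, a zinc finger factor of endocrine differentiation, was higher by 5.94 (SE 0.26) and the corepressor gene Cbfa2t3 by 6.04 (SE 0.16). Hhex was the 1 factor of the list that was lower, by -2.44 (SE 0.16). Among the largest differences outside the list, Bhlhe23 stood at 8.37 to 118 CPM with 0 UMIs in the trunk of any library. Detection after thinning every cell to 2000 UMIs gave the same picture for Neurod1, found in 24.9% to 54.2% of Neurog3-high cells against 0.282% to 6.08% of trunk cells and 0.148% to 5.09% of Epcam-negative cells.

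All 18 G2/M genes tested were lower, with a median log2 fold change of -1.40, and 17 of 19 S phase genes were lower, with a median of -1.14. Cdk1, the mitotic kinase, was lower by -1.89 (SE 0.19) and Rrm2, a subunit of ribonucleotide reductase, by -1.67 (SE 0.21). E2f1 was the S phase gene that was higher, by 1.11 (SE 0.14). Ccnd1, the G1 cyclin, stood at 21.9 to 72.7 CPM against 171 to 462 CPM, with no overlap (log2 fold change -2.47, SE 0.14, adjusted p = 2.05e-10). Of 16 genes linked to cell cycle exit or to G1 entry, a list that also holds Ccnd1, 7 were higher and 5 lower. Cdkn1a, a cyclin-dependent kinase inhibitor, stood at 1033 to 4336 CPM against 50 to 208 CPM (log2 fold change 3.61, SE 0.22), and Gadd45g was higher by 4.11 (SE 0.17). After thinning, Mki67, a marker of cycling cells, was found in 1.75% to 4.76% of Neurog3-high cells and 2.75% to 20.4% of trunk cells. The share was lower in the Neurog3-high cells of 7 libraries and higher in v1 E17.5, at 4.76% against 2.75%, with 21 Neurog3-high cells deep enough to count there.

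Of 25 genes of adhesion and delamination 8 were higher and 8 lower, which is near the shares of 25.6% and 25.8% over all genes. Tubb3, a neuronal tubulin, was higher by 5.56 (SE 0.27), and Snai1, a repressor of E-cadherin, was at 0 to 37.9 CPM against 0 to 2.88 CPM (log2 fold change 3.15, SE 0.41). The epithelial genes Cdh1, Cldn3 and Ocln were lower by -1.30 (SE 0.11), -1.83 (SE 0.13) and -0.93 (SE 0.19), and so was Vim, by -1.52 (SE 0.15). Of 23 genes for signalling receptors and ligands, 2 were higher and 9 lower. The lower ones included Cyr61, Ctgf and Yap1, the first pair being targets and the last an effector of the Hippo pathway, with log2 fold changes of -3.29 (SE 0.27), -3.04 (SE 0.30) and -1.59 (SE 0.21). Amotl2, which restrains Yap1, was higher by 2.14 (SE 0.13). Of 24 trunk progenitor genes tested, 15 were lower and 5 higher, among the latter the keratin Krt7 (2.14, SE 0.13). Erythroid genes were lower in 4 of 8 tested, with a summed level of 5.61 to 57657 CPM against 1781 to 67756 CPM in the trunk. Of 4 acinar genes tested 3 were higher, with a median of 1.19, and the summed acinar level was 224 to 6904 CPM against 336 to 2540 CPM in the trunk, whose cells were chosen for little acinar RNA. Of 15 dissociation response genes 9 were lower and 2 higher, with a median of -0.73. With the mixed-compartment cells left out, 5881 genes were called, of which 5329 were among the 5759 called with them. Of the 5881, 2472 were higher and 3409 lower, against 2865 and 2894 with them. The part of the remaining signals in the results was not tested.

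The Neurog3-high cells of each library were then ranked by their Neurog3 share and cut into 3 equal groups, called terciles here, which asks what moves with the level of Neurog3 within the population. Both v1 E12.5 and v1 E17.5 had fewer than 10 cells a tercile, so 6 libraries entered. Neurog3 itself went from 1363 to 2803 CPM in the lowest tercile to 3972 to 10902 CPM in the highest, as the ranking sets. All 5 other markers were higher in the highest than in the lowest tercile. They had been picked with these data in view, so this is a description and not independent evidence. Over all 8304 genes tested, 10.2% were called higher, 10.6% lower and 20.8% either way.

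Gadd45a stood at 1170, 1581, 715, 1046, 779 and 1075 CPM in the lowest tercile of v1 E14.5 batches 1 and 2, v2 E12.5, v2 E14.5, v2 E17.5 and Fev-Cre. In the highest tercile of the same libraries it stood at 2924, 3298, 2245, 2673, 2536 and 2190 CPM. The ranges did not overlap, and the log2 fold change was 1.35 (SE 0.08, adjusted p = 2.27e-14). In the middle tercile it ran from 1284 to 2911 CPM. Btbd17, Neurod2 and Igfbpl1 were higher by 1.15 (SE 0.08), 1.07 (SE 0.13) and 1.02 (SE 0.09), each in 6 of 6 libraries. Cck was higher by 0.61 (SE 0.12, adjusted p = 0.000261) in 5 of 6 libraries, but the call was lost when only cells with at least 2 of the 5 markers were kept (0.31, adjusted p = 0.0838) and when cells were thinned (0.33, adjusted p = 0.0867). Thinning to 2000 UMIs also ended the call of Neurod2 (0.38, adjusted p = 0.198).

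Of 26 transcription factor genes of the Neurog3 pathway, 14 were higher, 3 were lower and 9 were not called, with a median log2 fold change of 0.59 against 0.02 for all genes. Pax4 led the list at 1.41 (SE 0.11), going from 141 to 230 CPM in the lowest tercile of the 6 libraries to 346 to 729 CPM in the highest, without overlap. It was called under all 20 alternative settings tried. The corepressor gene Cbfa2t2 was higher by 1.20 (SE 0.16). The 3 factors that were lower were Hhex (-2.26, SE 0.35), Isl1 (-1.32, SE 0.19) and Atoh8 (-1.24, SE 0.38), the last not called without the Fev-Cre library. Isl1, a factor of later endocrine cells, was lower in 5 of 6 libraries and higher in v1 E14.5 batch 1, at 218 CPM in the highest against 141 CPM in the lowest tercile.

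Of 5 Notch ligand genes 2 were higher, 1 was lower and 2 were not called by tercile, and of 6 receptor and modifier genes 2 were higher and 4 were not called. Mfng was higher by 1.31 (SE 0.11) and Rbpj, the transcription factor through which Notch acts, by 0.77 (SE 0.17), each in 6 of 6 libraries. Dll4 was higher by 1.02 (SE 0.22) in 5 of 6, while Dll1 was at 0.42 (SE 0.23) and was not called. Hes6 was higher by 1.05 (SE 0.08). Hes1 stood at 370, 176, 180, 433, 278 and 455 CPM in the lowest tercile and at 69.8, 127, 67.5, 223, 60 and 132 CPM in the highest, in the library order above. It was lower in every library (log2 fold change -1.55, SE 0.15, adjusted p = 1.56e-09), and the ranges overlapped between libraries. Sox9, the trunk regulator, was lower by -1.23 (SE 0.16) and Dlk1 by -0.88 (SE 0.10), each in 6 of 6 libraries.

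**Figure D3:**
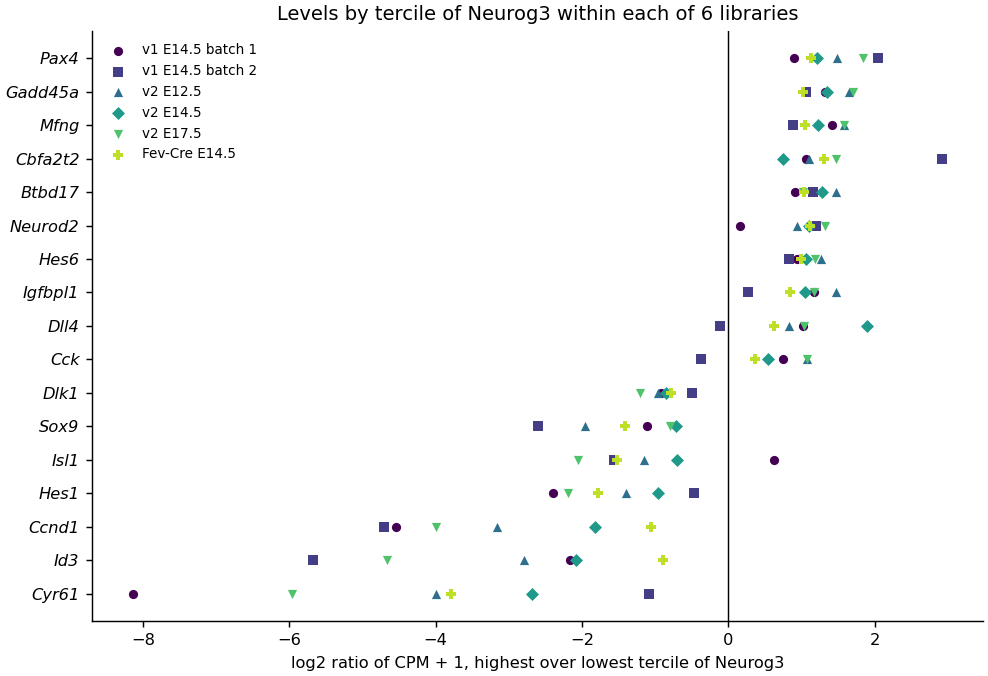
Log2 ratio of CPM plus 1 in the highest over the lowest tercile of Neurog3 (horizontal axis) for 17 genes (vertical axis), 1 symbol for each of 6 libraries. Pax4, Gadd45a, Mfng, Cbfa2t2, Btbd17 and Hes6 lie right of 0 in all 6 libraries, and Hes1, Ccnd1, Id3 and Cyr61 lie left of it.

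Cell cycle genes were mostly lower in the highest tercile. Of 17 G2/M genes 13 were lower and none higher, with a median of -1.06. Of 18 S phase genes 11 were lower and 1 higher, with a median of -0.71. The summed S phase level went the other way in v1 E14.5 batch 2, at 464 CPM in the lowest and 937 CPM in the highest tercile. It was lower in the highest tercile of the other libraries. Ccnd1 was at 0 in the highest tercile of both v1 E14.5 batches and at 8.57 to 50.9 CPM in the others, against 22.2 to 152 CPM in the lowest (log2 fold change -2.48, SE 0.31). Cdk1 was lower by -1.78 (SE 0.29). Of 22 trunk progenitor genes 13 were lower and 5 higher, with a median of -0.69. Id3, a dominant negative helix-loop-helix protein, was lower by -2.51 (SE 0.31) and Bicc1 by -2.20 (SE 0.22), while Krt19 and Krt7 were higher by 0.80 (SE 0.13) and 0.68 (SE 0.10). Cyr61 had a log2 fold change of -3.71 (SE 0.33).

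Markers of other compartments moved with the terciles. All 12 acinar, 7 erythroid and 3 immune genes tested were lower in the highest tercile, with medians of -3.07, -3.27 and -3.27. Of 13 dissociation response genes 7 were lower and 1 higher, with a median of -0.34. The summed acinar level ran from 979 to 13396 CPM in the lowest tercile of the 6 libraries and from 1076 to 2006 CPM in the highest. Mixed-compartment cells made up 15.6% of the lowest tercile, 7.74% of the middle and 2.46% of the highest, and cells with none of the 5 markers made up 8.63%, 0.377% and 0. These shares are over the cells of all 8 libraries. In v1 E14.5 batch 1, 15 of the 40 cells of the lowest tercile (37.5%) had none of the markers, and 55% had at least 2. In v1 E14.5 batch 2 no cell of the lowest or highest tercile was a mixed-compartment cell. The lowest tercile also had more UMIs a cell, a median of 6805 against 4983 in the highest over all libraries, but fewer in v1 E14.5 batch 2, at 3648.5 against 4573. With the mixed-compartment cells left out, Gadd45a (1.27), Pax4 (1.36), Mfng (1.20), Hes1 (-1.71), Sox9 (-1.29) and Ccnd1 (-2.74) kept their calls, and the haemoglobin gene Hba-a1 went from -3.33 to 0.09. With Neurog3 required at 5 UMIs and 0.2% of UMIs, 418 genes were called in place of 1730, and without the v2 E12.5 library 1080 were.

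The nearest state was that of cells meeting the same Neurog3 criterion but with at least 1 Fev UMI, of which there were 344. They were compared with the Fev-negative cells in the 7 libraries with at least 10 such cells, all but v1 E12.5. Depth differed between the classes in both directions. The median UMI count was 8899 with Fev and 5717 without in v2 E12.5, 6048 and 4566 in v2 E14.5, 6246.5 and 7968 in v2 E17.5, and 6754 and 7080 in the Fev-Cre library. In v1 it was 2503 and 2890.5 in E14.5 batch 1, 4067 and 4195 in batch 2, and 2444.5 and 3022.5 in E17.5. Neurog3 was at 2192 to 7751 CPM with Fev and at 2336 to 6067 CPM without in these 7 libraries, a description only. Within libraries the median Neurog3 share of UMIs was lower with Fev in all but v1 E17.5. With and without Fev it was 0.323% and 0.620% in v1 E14.5 batch 1, 0.336% and 0.432% in batch 2, and 0.635% and 0.620% in v1 E17.5. It was 0.202% and 0.237% in v2 E12.5, 0.188% and 0.233% in v2 E14.5, 0.544% and 0.615% in v2 E17.5, and 0.284% and 0.408% in Fev-Cre. The classes were thus not matched for Neurog3.

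Genes of the secretory granule were higher in the cells with Fev, in 9 of 10 tested and with a median log2 fold change of 2.15 against -0.02 for all genes, where 7.9% of 7832 genes were called higher, 10.5% lower and 18.4% either way. Chgb, a granin, stood at 24.7, 275, 0, 118, 108, 159 and 276 CPM without Fev in v1 E14.5 batches 1 and 2, v1 E17.5, v2 E12.5, v2 E14.5, v2 E17.5 and Fev-Cre. With Fev it stood at 4087, 10658, 1906, 3581, 4700, 3117 and 6684 CPM in these libraries. The groups were far apart in each of them, and the log2 fold change was 5.03 (SE 0.21, adjusted p = 2.14e-15). Pcsk2, a prohormone convertase, was higher by 3.06 (SE 0.16), Pcsk1n by 2.82 (SE 0.13) and Chga by 2.73 (SE 0.28), each in 7 of 7 libraries.

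Of 27 transcription factor genes of the Neurog3 pathway, 13 were higher with Fev and 4 lower. Pax6 went from 23.4 to 88.7 CPM without Fev to 238 to 721 CPM with Fev in the 7 libraries (log2 fold change 2.94, SE 0.13). Mlxipl and St18 were higher by 2.18 (SE 0.17) and 2.07 (SE 0.16), and Runx1t1 by 1.89 (SE 0.13). Sox4 was lower by -0.96 (SE 0.11), Cbfa2t3 by -0.74 (SE 0.14) and Insm1 by -0.43 (SE 0.13). The lens crystallin gene Cryba2 (3.66, SE 0.12), the vitamin D receptor gene Vdr (3.80, SE 0.28) and the claudin gene Cldn4 (2.19, SE 0.14) were also higher in 7 of 7 libraries. Sst was higher by 6.48 (SE 0.51), but it was at 0 with Fev in 3 of these libraries and at 3623 CPM in v2 E17.5, and DESeq2 did not call it.

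Of the 5 markers, Gadd45a and Btbd17 were lower in the cells with Fev and the others were not called. Gadd45a stood at 543 to 1391 CPM with Fev against 1266 to 2613 CPM without, lower in 7 of 7 libraries (log2 fold change -1.33, SE 0.12, adjusted p = 5.09e-09). Btbd17 was lower by -0.86 (SE 0.15) in 6 of 7, with v2 E12.5 the exception at 819 against 719 CPM. The log2 fold changes of Neurod2, Igfbpl1 and Cck were -0.28 (SE 0.14), -0.37 (SE 0.16) and -0.08 (SE 0.17). Dll1 (-1.42, SE 0.27), Lfng (-1.96, SE 0.32), Notch1 (-1.28, SE 0.34), Hes1 (-1.05, SE 0.19), Hes6 (-0.49, SE 0.10) and Mfng (-0.38, SE 0.10) were all lower. Cdkn1a was lower by -1.04 (SE 0.19), and 9 of 17 G2/M and 11 of 18 S phase genes were lower with none higher. DESeq2 called 4 of the 17 and 7 of the 18. The summed G2/M level was higher with Fev in v1 E14.5 batch 1, at 2049 against 1438 CPM. It was near equal in v2 E14.5, at 1398 against 1389 CPM, and lower with Fev in the other libraries. Tff2, a trefoil peptide, stood at 0 to 21.5 CPM with Fev and at 3.52 to 631 CPM without. Without the Fev-Cre library 930 genes were called in place of 1445, and Mfng was among those lost.

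Markers of other compartments also differed between cells with and without Fev. All 7 erythroid genes tested were lower with Fev, with a median of -1.22. So were 2 of 4 mesenchyme, 3 of 12 acinar and 1 of 4 immune genes, and none of these was higher. DESeq2 called 1 of the erythroid, 2 of the mesenchyme, 1 of the acinar and 0 of the immune genes. Of the neural crest and neuron markers 1 was tested, the neuronal RNA-binding protein gene Elavl4, and it was higher by 1.20. Single libraries went against this. The summed acinar level was 11411 CPM with Fev and 1010 CPM without in v1 E14.5 batch 2, and 4144 and 3294 CPM in v2 E12.5. The summed erythroid level was 1469 CPM with Fev and 1335 CPM without in v1 E14.5 batch 2, and 2575 and 2417 CPM in v1 E17.5. The summed immune level was 108 CPM with Fev and 77.8 CPM without in v2 E12.5. Of 12 dissociation response genes 3 were higher and 1 was lower. With the mixed-compartment cells left out, 1409 genes were called, of which 1304 were among the 1445, and Chgb (4.98), Pax6 (2.92), Pcsk2 (3.23) and Gadd45a (-1.34) kept their calls. The part of the remaining signals was not tested.

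The Fev-Cre library carries the lineage reporter, so Cre activity in a cell's past can be read beside its present Fev. At least 1 eGFP UMI was found in 17.98% of the 178 Fev-negative Neurog3-high cells (exact 95% interval 12.6% to 24.4%), in 49.4% of the 81 with Fev (38.1% to 60.7%) and in 92.3% of 968 Fev cells without Neurog3. The collagen-positive, Epcam-negative cells, a mesenchymal class taken as background, had it in 13.7% of 2305 (12.3% to 15.2%), a share inside the interval of the Fev-negative cells. Median depths were 7080 UMIs in the Fev-negative cells and 6111 in the collagen-positive ones. Trunk epithelium carried at least 1 eGFP UMI in 33.5% of 477 cells (29.3% to 38.0%), at a median depth of 11075 UMIs, and Epcam-negative cells of every kind in 20.7% of 2866. At 2 or more eGFP UMIs the shares were 3.37% (1.25% to 7.19%) without Fev, 42.0% (31.1% to 53.5%) with Fev, 1.65% (1.17% to 2.26%) in collagen-positive cells, 14.3% (11.2% to 17.7%) in trunk epithelium and 9.18% (8.14% to 10.3%) in Epcam-negative cells. By tercile of Neurog3, at least 1 eGFP UMI was found in 20 of 60 cells of the lowest, 7 of 59 of the middle and 5 of 59 of the highest. Their median depths were 7948, 7073 and 6576 UMIs. At 2 or more eGFP UMIs it was found in 4, 1 and 1 cells. The share of the lowest tercile at 1 UMI was 33.3% (21.7% to 46.7%), above the interval of the collagen-positive cells and near the share of trunk epithelium. The summed eGFP level was 107, 18.8 and 14.8 CPM from the lowest to the highest tercile. It was 28.5 CPM in collagen-positive cells and 130 CPM in trunk epithelium. The reporter rests on 1 library, and the GFP+ cells were mixed in by the sort.

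**Figure D4:**
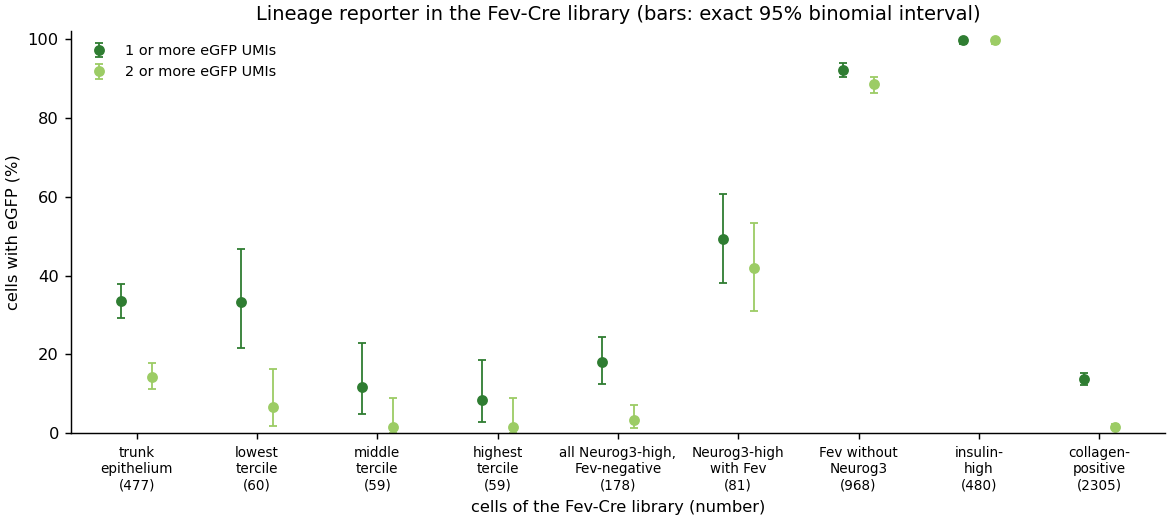
Share of cells with eGFP (vertical axis, percent) in 9 sets of cells of the Fev-Cre library (horizontal axis, number of cells in parentheses), at 1 or more (dark) and 2 or more UMIs (light), with exact 95% binomial intervals as bars. The Fev-negative cells lie at 17.98% and 3.37%, the collagen-positive, Epcam-negative cells at 13.7% and 1.65%, and the cells with Fev at 49.4% and 42.0%.

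The stages were compared in the 7 Swiss Webster libraries, with kit as a term and 1 estimate of spread, which asks whether the Neurog3-high state differs between early and late endocrine differentiation. Each stage had 1 library a kit, apart from 2 at v1 E14.5. Between E12.5 and E17.5, 152 of 6053 genes were called higher at E17.5 (2.51%) and 104 lower (1.72%), or 4.23% either way. Without v2 E12.5 the total of 256 fell to 29 and without v2 E17.5 to 42, so these calls lean on the v2 pair. Without v1 E12.5, v1 E14.5 batch 1, v1 E14.5 batch 2 or v1 E17.5 it was 424, 623, 475 or 487. Between E12.5 and E14.5, 33 genes were called higher (0.545%) and 21 lower (0.347%), or 0.892% either way. Without v2 E12.5 none was called by edgeR, with 325 genes at an unadjusted p under 0.05, and without v2 E14.5 only 5 were. Without v1 E12.5, v1 E14.5 batch 1, v1 E14.5 batch 2 or v1 E17.5 the total of 54 became 88, 189, 205 or 173. With the v1 batch number, which the labels give, as a replicate block, 459 genes were called to E17.5 and 126 to E14.5.

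Neurod2 stood at 28.4 CPM in v1 E12.5, 200 and 516 CPM in v1 E14.5 and 449 CPM in v1 E17.5, and at 23.6, 118 and 300 CPM with v2. Both E12.5 libraries were below all others. The log2 fold change was 3.62 (SE 0.48, adjusted p = 9.96e-05) to E17.5 and 2.72 (SE 0.46, adjusted p = 0.00571) to E14.5, and without v2 E12.5 the former was 4.39 with an adjusted p of 0.0526. The share of cells with Neurod2 after thinning moved the same way, from 0% and 5.19% in the E12.5 libraries to 21.2% to 52.4% in the other 6, Fev-Cre included, where at most 0.206% of Epcam-negative cells had it. Runx1t1, a corepressor, stood at 18.9, 76.7, 80.3 and 199 CPM with v1 from E12.5 to E17.5 and at 23.6, 68.4 and 274 CPM with v2 (log2 fold change to E17.5 3.47, SE 0.37). Its adjusted p without v2 E12.5 was 0.0522. Isl1 was higher at E17.5 by 2.52 (SE 0.33), with an adjusted p of 0.068 without v2 E12.5.

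Chga showed the widest change of the granule genes, from 37.9 CPM at v1 E12.5 and 11.6 CPM at v2 E12.5 to 3177 and 1238 CPM at E17.5 (log2 fold change 6.68, SE 0.44, adjusted p = 7.8e-08). At E14.5 it stood at 145, 214 and 82.2 CPM, between the other stages. Chga detection after thinning also rose in trunk cells, from 0% (v1) and 0.752% (v2) at E12.5 to 8.26% and 4.90% at E17.5. Of 9 granule genes tested 6 were higher at E17.5 and none lower, with a median of 2.02 against -0.01 for all genes, among them Pcsk1n (2.67, SE 0.45), Pcsk2 (3.72, SE 0.88) and Scg3 (2.52, SE 0.52). Pcsk1n and Scg3 were not called without v2 E12.5 or without v2 E17.5, and Pcsk2 was then too low to be tested. Of 25 transcription factor genes 6 were higher and 1, Sox11, was lower.

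Sox11 stood at 114 CPM at v1 E12.5 and 175 CPM at v2 E12.5, while E14.5 gave 30.1 to 47.4 CPM and E17.5 gave 0 and 3.43 CPM. The 3 stages did not overlap, and the log2 fold change was -1.87 (SE 0.35, adjusted p = 0.0127) to E14.5 and -5.58 (SE 0.53, adjusted p = 3.71e-06) to E17.5, the latter with an adjusted p of 0.0737 without v2 E17.5. Dlk1 stood at 862 and 783 CPM at E12.5, while E14.5 gave 584 to 914 CPM and E17.5 gave 99.7 and 90.6 CPM (log2 fold change to E17.5 -3.04, SE 0.35). After thinning, Cck was found in 2.44% (v1) and 2.07% (v2) of trunk cells at E12.5 and in 0.917% and 0.131% at E17.5. In the Neurog3-high cells Cck was also the marker that fell with stage. It went from 2831 and 1352 CPM at E12.5 to 1134 and 355 CPM at E17.5 (log2 fold change -1.63, SE 0.36, adjusted p = 0.0106). The kits overlapped, each falling by itself, and its adjusted p was 0.462 without v2 E12.5 and 0.373 without v2 E17.5. Id3 was lower by -3.57 (SE 0.50) and Dll3 by -2.15 (SE 0.52), and neither was called without v2 E12.5 or without v2 E17.5.

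Gadd45a, Btbd17 and Igfbpl1 were not called at either later stage. Gadd45a had a log2 fold change of 0.17 (SE 0.34) to E17.5 and 0.29 (SE 0.31) to E14.5, Btbd17 of -0.05 (SE 0.35) and 0.45 (SE 0.33), and Igfbpl1 of -0.73 (SE 0.34) and -0.24 (SE 0.31). Their levels over the 3 E14.5 libraries were 2216 ± 427 CPM, 1755 ± 613 CPM and 1047 ± 428 CPM (SD, n = 3). On simulated counts the stage fit recovered 14.9% of 2-fold changes, so differences of about 1 on the log2 scale could be missed.

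**Figure D5:**
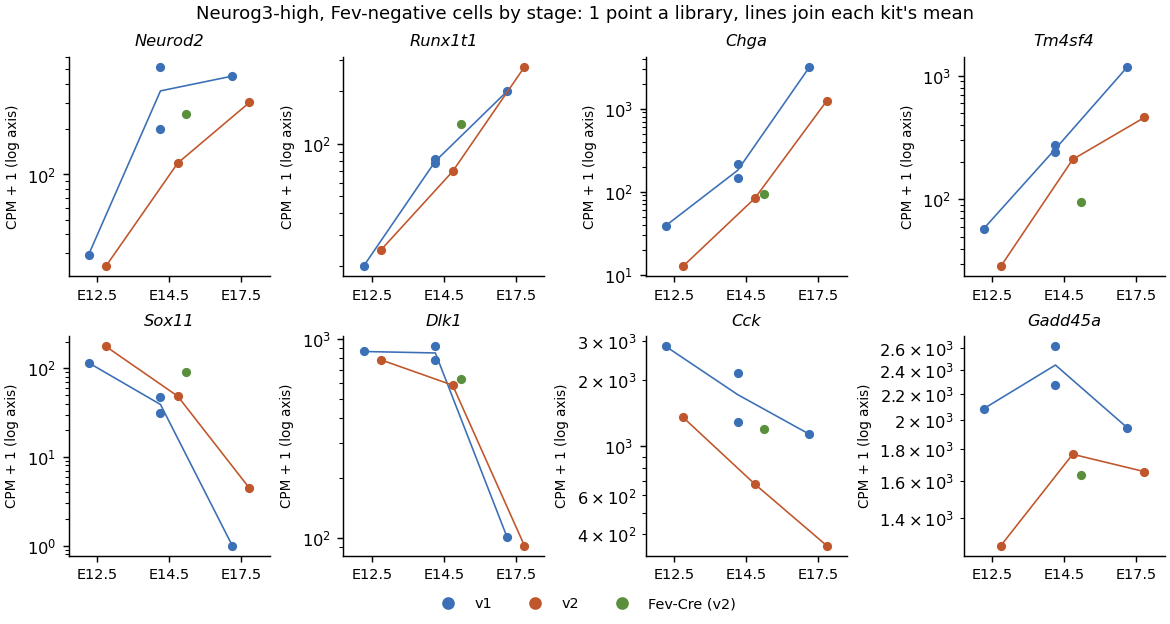
Summed level of 8 genes (CPM plus 1, log axis) in Neurog3-high, Fev-negative cells at 3 stages (horizontal axis), 1 point for each library, blue for v1, orange for v2 and green for the Fev-Cre library. Lines join the mean of each kit. Neurod2, Runx1t1, Chga and Tm4sf4 are lowest at E12.5 in both kits, and Sox11 and Dlk1 are lowest at E17.5.

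Among 21 trunk progenitor genes 9 were higher at E17.5 and 3 lower, with a median of 1.02. Tm4sf4 and Clu, the latter a secreted chaperone, were higher by 4.27 (SE 0.37) and 4.18 (SE 0.37), and the metallothionein gene Mt1 by 3.97 (SE 0.52). Tff2 stood at 0 CPM at v1 E12.5 and 3.52 CPM at v2 E12.5, and at 274 and 631 CPM at E17.5 (log2 fold change 7.38, SE 0.54). Chga, Clu, Tm4sf4, Tff2 and Dlk1 were called under all 20 alternative settings tried. At E14.5, Hes1 was higher by 1.31 (SE 0.30, adjusted p = 0.0486 by edgeR), and the call was lost without v2 E12.5 and with DESeq2. Of 14 G2/M genes 2 were lower at E17.5, Cdc20 and Birc5, neither called without v2 E12.5 or v2 E17.5, and none of the 15 S phase genes was called by edgeR or by DESeq2, with 9 at an unadjusted p under 0.05 in edgeR. The median log2 fold changes were -1.13 and -1.21, with every gene of both lists below 0.

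Other signals moved with stage. Of 11 genes known to respond to tissue dissociation 7 were higher at E17.5, with a median of 1.64, among them Dusp1 (2.14, SE 0.32), Jun (1.84, SE 0.38) and Atf3 (3.56, SE 0.69), none of the 3 called under every left-out library. The summed level of 16 such genes was 3059 and 3135 CPM at E12.5 and 8808 and 4251 CPM at E17.5. At E14.5 edgeR called none of the 11, with 6 at an unadjusted p under 0.05 and a median of 0.87, and DESeq2 called 1. The adult globin gene Hbb-bs was higher at E17.5 by 4.20 (SE 0.53), and the embryonic globin gene Hbb-y was at 256 and 1899 CPM at E12.5 and at 0 in both E17.5 libraries. Of 9 acinar genes 1 was higher, the lipase gene Cel (3.53), but without v2 E17.5 it stood at -4.01, DESeq2 did not call it, and with the mixed-compartment cells left out it was too low to be tested. With the mixed-compartment cells left out, 282 genes were called, of which 239 were shared with the 256. The part of these signals in the stage differences was not tested.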

How the data were processed

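Per the submitters' processing notes, reads were processed with Cell Ranger 1.1 and 2.1 on mm10, and for the Fev-Cre library the authors added the eGFP and tdTomato sequences to the genome. The deposited matrices hold raw UMI counts per gene and cell. A second alignment of the Fev-Cre library, without reporters, was not used. Depth per sample was 15671934 to 127151679 UMIs. The v1 files list 0 counts for mitochondrial genes, which were left out of the tests.

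UMI counts were summed per library and class (10 or more cells) and tested with edgeR 4.0.16 in R 4.3.3, by the quasi-likelihood F test with TMM scaling, filterByExpr and Benjamini-Hochberg adjustment over all genes tested. Calls were made at an adjusted p under 0.05. Stage fits held the 7 Swiss Webster libraries with kit as a term. Other fits held the library as a block. Classes of 1 library come from 1 suspension, and their deviations correlated at 0.18 to 0.66, each library best with itself. Each library is 1 pool. In the stage fit the p-values measure the spread between these libraries that stage and kit leave. In the fits with the library as a block they measure how evenly a difference recurs within these libraries. CPM used all UMIs of a class. DESeq2 1.42.0 was an alternative. Other alternatives changed the scaling, filters, criteria, block, depth and libraries.

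The members, the 22 gene lists and the markers were chosen with earlier results of these data known. Named genes are the markers, at most 4 called genes per list and direction, and the 8 largest changes per direction with 1 sign in every library. Dll1 in the terciles and the detection shares of Neurod1 and Mki67 were added after their values were seen, as was the collagen-positive background class. No doublet caller was run, and mixed-compartment cells were removed as an alternative. Cells shared 0.433% to 1.82% of barcodes between libraries of a kit. Tested on simulated counts, the stage fit recovered 14.9% of 2-fold and 83.2% of 4-fold changes, the tercile fit 56.1% and 94.8%, the Fev fit 66.3% and 95.7%, and the trunk fit 82.7% and 96.9%. The simulated counts had the same set dispersion for every gene, not estimated from these data. For the stage fit they also held no kit or pool differences. The rates hold for those settings and may be too high for these libraries. For detection each cell was thinned to 2000 UMIs, which left out 18 of the 1591 cells. Motifs were searched in RefSeq windows of GRCm38.p6.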

Additional observations from a re-analysis of the deposited data

Results flagged for a closer look

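By Dixon's gap ratio at its 95% level, in 9 cases 1 library stood apart from the others in its log2 ratio for a gene, out of 141 gene comparisons checked. A test at this level by its construction picks out about 1 in 20 by chance. In the highest over the lowest tercile, Neurod2 was at 0.17 in v1 E14.5 batch 1 against 0.95 to 1.33 in the others, Cbfa2t2 at 2.92 in v1 E14.5 batch 2 against 0.75 to 1.46, and Lmx1b at -4.54 in v1 E14.5 batch 1 against -0.49 to 1.67. With Fev against without, Sphk1 was at -7.08 in v1 E14.5 batch 2 against -3.30 to -0.78. Against the trunk, Lfng was at 5.60 in v1 E12.5 against 2.20 to 3.60, Cdk1 at -5.10 and Snai2 at -2.76 in v1 E14.5 batch 2 against -2.69 to -1.39 and 0.00 to 2.44, Ocln at -6.75 in v1 E12.5 against -2.21 to -0.40, and Pcsk1 at 1.53 in the Fev-Cre library against 2.90 to 3.82. The ratios are of CPM plus 1, so they depend on that added 1 where a class held no UMI of the gene, as in the library singled out for Lmx1b (highest tercile), Sphk1 (with Fev), Lfng (trunk), and Snai2 and Ocln (Neurog3-high cells). The cause of the other cases was not tested.

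Tm4sf4 was lower than in the trunk in both E12.5 libraries and higher in the 6 libraries of the later stages, and the mean log2 ratio was 0.99 higher at E14.5 and 0.88 higher at E17.5 than at E12.5. The difference between stages was not tested.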

How the results depend on the processing

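Of the recomputed values of named genes, 3595 kept their direction and side of the threshold, 346 lost the call, 4 gained it and 2 reversed, Hba-a1 by tercile at 0.09 without mixed-compartment cells and Cel from E12.5 to E17.5 at -4.01 without v2 E17.5 (-4.01 to 7.18 with 1 library left out). Keeping only cells with 2 or more of the 5 other markers, and taking 8 in place of 10 cells a class, were chosen after seeing the data.

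The count of genes called from E12.5 to E17.5 (256) was 466 with no filter on low counts, 131 in cells of 3000 or more UMIs, 49 with no kit term and 29 to 623 when 1 library was left out. From E12.5 to E14.5 (54) it was 142, 8, 0 (with 345 at an unadjusted p under 0.05 by edgeR) and 0 to 205 under the same settings, 29 with Neurog3 at 5 UMIs and 0.2%, 33 with the marker restriction and 21 with the Fev-Cre library added. The tercile count (1730) was 418 with Neurog3 at 5 UMIs and 0.2%, 259 thinned to 2000 UMIs, 598 when 2-fold was also required and 1080 to 1823 with 1 library left out. The Fev count (1445) was 506 and the trunk count (5759) 2480 when 2-fold was also required, and with 1 library left out they were 930 to 1470 and 4693 to 5884. DESeq2 called 190, 45, 1395, 1176 and 5781 genes in the 5 comparisons in this order. With relative log expression factors 40.3% of the tercile calls were higher, against 49% with TMM. The cause of these changes was not tested.

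Without the replicate block, so with the pairing within libraries ignored, 114 genes were called by tercile, 170 by Fev and 2643 against the trunk. With the v1 batch number as a replicate block, 459 genes were called to E17.5 and 126 to E14.5.

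The median share was 5.383% of Epcam-positive cells and 2.247% of all cells, and 5.178% to 5.588% with 1 library left out. The eGFP share was 17.978% at 1 UMI and 3.3708% at 2. Median detection after thinning, and with all UMIs, was 11.84% and 27.08% for Sox9 (11.31% to 12.36% with 1 library left out), 38.85% and 50.69% for Neurod1 (35.39% to 42.31%), 18.76% and 28.88% for Hes1 (17.86% to 19.66%) and 4.06% and 5.893% for Mki67 (3.846% to 4.274%). Precision was lowest in v1 E12.5 and v1 E17.5, with 27 and 26 cells.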
